A study of Homo sapiens with 32 samples.

Results

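Chromatin loops at the starts of 40 immediate-early and stress-response genes were compared between untreated cells and cells given sorbitol. The 40 genes are part of the 19970 protein-coding genes of the annotation, and a loop was counted for a gene when at least 1 of its anchors lay within 10 kb of the 5′ end of the gene record. By this rule 36 of 15180 loops in wild-type control cells, 34 of 5906 in wild-type cells with sorbitol, 47 of 18966 in eGFP-YAP control cells and 25 of 5577 in eGFP-YAP cells with sorbitol belonged to these genes. The assay was in situ Hi-C, in which chromatin is cut and re-ligated inside intact nuclei so that DNA segments lying close together are joined and sequenced. The cells were HEK293, a human embryonic kidney line, either wild type (WT) or of a line named eGFP-YAP after YAP, a co-activator of transcription, with a green fluorescent tag. Treated cells of both lines received 200 mM sorbitol for 1 h, which raises the osmolarity of the medium, and the series text states that eGFP-YAP cells were serum-starved before it. Whether the controls of either line, or WT cells, were starved too is not given in the sources used here. How the eGFP-YAP line was made, and whether it is a single clone, is not given either.

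The labels name 3 samples for each WT condition and 4 for each eGFP-YAP condition, 14 of 32 samples in the series, and the other 18 were not analysed here. The files hold 1 pooled list for each condition, so the differences below have no replicate check, no test between conditions could be made, and intervals (exact Clopper-Pearson, 95%) cover counting error only. The names of the lists carry a source that differs between the lines, so line and source cannot be told apart. The sorbitol lists were shorter than the control lists, and sequencing depth is not given in the sources used here, so a loop that is listed in 1 condition was called there and was not called in the other. Fewer called loops and fewer loops cannot be told apart in such lists.

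Immediate-early genes are switched on within minutes of a stimulus, without new protein synthesis, by factors that are already present. Serum, growth factors and hyperosmotic stress reach them through MAP kinases, which act on factors bound at short promoter elements such as the CArG box (the site of SRF) and the cAMP response element. Many products are transcription factors (the FOS, JUN, EGR, KLF and NR4A families), and others switch the response off again, by removing phosphate from MAP kinases (DUSP genes), by speeding mRNA decay (ZFP36 genes) or by holding NF-κB in the cytoplasm (NFKBIA).

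The promoters of 4 genes are shown because, of the genes with a RefSeq window, these have the most loops called with sorbitol and not in control in both lines. Sequences are those of RefSeq on GRCh38.p14, from 250 bases before to 50 bases after the start, written 5′ to 3′ on the strand of the gene. Capitals mark matches to the CArG box and TATAAA in SRF (chr6:43171019-43171318, plus strand), to TGACGTCA (the cAMP response element) and TATAAA in DUSP1 (chr5:172771146-172771445, minus strand), to the osmotic response element TonE and TATAAA in NFKBIA (chr14:35404700-35404999, minus strand), and to TGACGTCA in MAFF (chr22:38201744-38202043, plus strand).
SRF: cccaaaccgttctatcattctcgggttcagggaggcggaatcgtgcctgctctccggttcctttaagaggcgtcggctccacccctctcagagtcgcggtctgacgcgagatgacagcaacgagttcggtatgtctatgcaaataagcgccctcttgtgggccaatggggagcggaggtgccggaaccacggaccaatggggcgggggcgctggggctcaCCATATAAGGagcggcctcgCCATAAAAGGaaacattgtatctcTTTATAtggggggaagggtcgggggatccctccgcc
DUSP1: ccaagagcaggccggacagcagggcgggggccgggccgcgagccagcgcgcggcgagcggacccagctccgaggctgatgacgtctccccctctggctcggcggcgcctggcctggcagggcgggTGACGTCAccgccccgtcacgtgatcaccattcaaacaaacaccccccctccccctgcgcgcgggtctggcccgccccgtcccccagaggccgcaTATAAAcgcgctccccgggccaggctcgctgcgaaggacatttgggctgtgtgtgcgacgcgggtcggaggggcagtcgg
NFKBIA: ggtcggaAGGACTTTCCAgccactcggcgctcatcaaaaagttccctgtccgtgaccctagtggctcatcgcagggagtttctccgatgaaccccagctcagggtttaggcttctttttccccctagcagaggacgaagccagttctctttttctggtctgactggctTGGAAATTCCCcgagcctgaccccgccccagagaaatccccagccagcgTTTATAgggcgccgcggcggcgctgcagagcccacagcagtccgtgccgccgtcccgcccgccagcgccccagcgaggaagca
MAFF: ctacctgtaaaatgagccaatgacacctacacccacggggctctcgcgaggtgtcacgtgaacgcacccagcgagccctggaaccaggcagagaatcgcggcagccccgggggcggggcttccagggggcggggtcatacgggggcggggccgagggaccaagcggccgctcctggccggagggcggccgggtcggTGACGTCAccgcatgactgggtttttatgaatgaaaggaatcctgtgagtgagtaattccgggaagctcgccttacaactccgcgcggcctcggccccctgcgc

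In the SRF window 2 CArG boxes lay at positions 221 to 230 and 241 to 250, just ahead of the annotated start, and the TATAAA match was on the opposite strand at positions 265 to 270. The DUSP1 window held TGACGTCA at positions 126 to 133 and TATAAA at positions 221 to 226. Both TonE matches of NFKBIA, at positions 8 to 18 and 169 to 179, are stretches that also resemble the site of NF-κB, a motif that was not searched. The MAFF window belongs to a start 1227 bases from the 5′ end of the gene record used for the loops.

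RefSeq windows were at hand for 29 of the 40 genes (not for FOSL1, EGR3, IER3, KLF10, DUSP4, DUSP5, NR4A2, MCL1, ZFP36L2, ARC and TRIB1) and for 15286 other protein-coding genes. Searched on both strands, TATAAA was in 9 of the 29 windows (31.0%, interval 15.3 to 50.8%) and in 9.70% of the others, TGACGTCA in 4 (13.8%, interval 3.89 to 31.7%) and in 2.58%, and the CArG box in 2 (6.90%, interval 0.846 to 22.8%) and in 1.22%. The genes with TGACGTCA were DUSP1, JUND, MAFF and PPP1R15A, and those with a CArG box were EGR1 and SRF. TonE was in 1 window (3.45%; 3.83% of the others), the AP-1 site TGACTCA in 1 (3.45%; 3.60%), GGAATG, a core of the TEAD site, in 3 (10.3%; 11.7%) and the EGR site GCGTGGGCG in 0 (1.10%). No further motif was searched for overlap, and a match is a description of letters, not of a bound site.

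Starts of these genes had loops more often than starts of other protein-coding genes in all 4 lists. At least 1 loop was listed for 21 of 40 genes in WT control (52.5%, interval 36.1 to 68.5%), against 29.2% of 19930 other starts. With sorbitol the WT list held a loop for 19 (47.5%, interval 31.5 to 63.9%), against 27.7%. In eGFP-YAP cells the count was 27 in control (67.5%, interval 50.9 to 81.4%), against 37.5%, and 17 with sorbitol (42.5%, interval 27.0 to 59.1%), against 28.5%. The interval of the 40 genes lay above the share of other starts in the WT control, WT sorbitol and eGFP-YAP control lists and included it in eGFP-YAP sorbitol. Per start, the 40 genes had 0.900, 0.850, 1.18 and 0.625 loops in these lists, in the order just given, and the other starts 0.427, 0.428, 0.649 and 0.446. The lists differ in length. With each control list shortened to the length of its sorbitol list by keeping the highest peak scores, 7 of 40 genes had a loop in WT control (17.5%, interval 7.34 to 32.8%; 12.6% of other starts) and 9 in eGFP-YAP control (22.5%, interval 10.8 to 38.5%; 11.7%), and both intervals then included the share of other starts. With the start itself inside an anchor, the shares of the 40 genes were 10.0, 17.5, 20.0 and 30.0%, against 8.28, 12.7, 13.1 and 13.7% of other starts, and the intervals of the first 3 lists included the share of other starts.

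**Figure D1:**
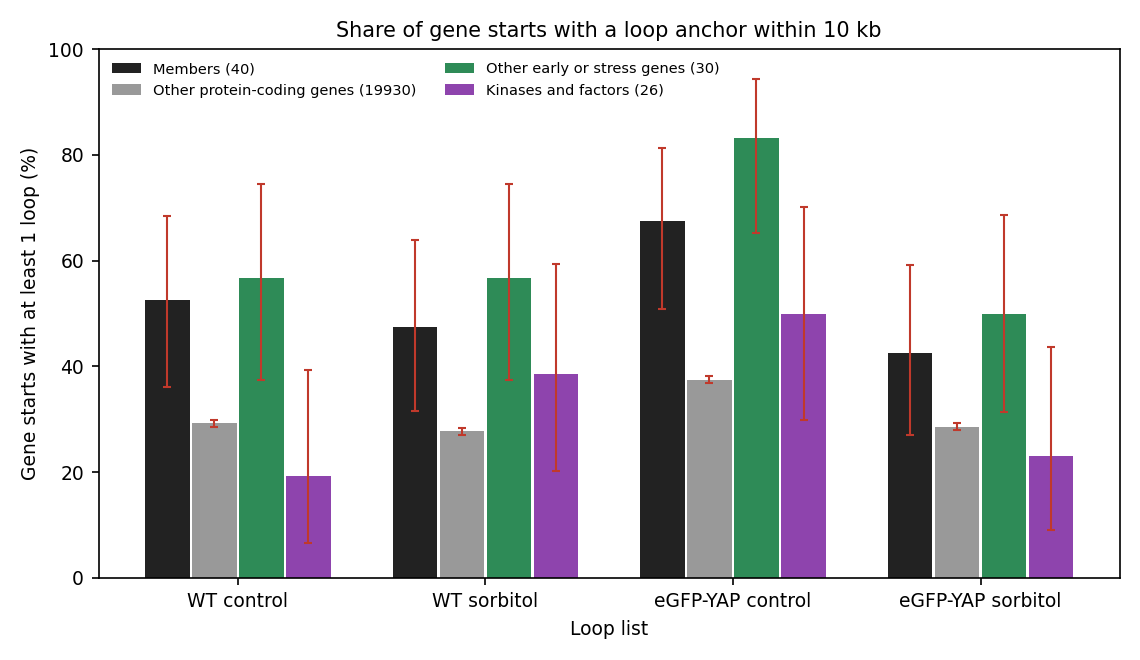
Share of gene starts with at least 1 loop anchor within 10 kb (percent, y axis) in the 4 loop lists (x axis), for the 40 immediate-early and stress-response genes, 19930 other protein-coding genes and the 2 related gene lists. Error bars are exact 95% intervals of counting error. The 40 genes stand at 52.5, 47.5, 67.5 and 42.5%, above the grey bars of other genes in each list.

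In the lists as deposited, loops at the 40 starts were about as many with sorbitol as in control in WT cells and fewer in eGFP-YAP cells, and with the control lists shortened this direction turned. In WT cells 36 loops were listed in control and 34 with sorbitol, a ratio of 0.944 (interval 0.573 to 1.55), where loops at other protein-coding starts went from 5546 to 3622 (ratio 0.653) and the whole list from 15180 to 5906 (0.389). In eGFP-YAP cells 47 loops were listed in control and 25 with sorbitol, a ratio of 0.532 (interval 0.314 to 0.882), beside 0.473 for other starts and 0.294 for the whole list. The intervals of the 40 genes included the ratio of other starts in both lines. With the control lists shortened, the 40 genes had 11 control loops against 34 with sorbitol in WT (ratio 3.09, interval 1.53 to 6.76; 1.70 for other starts) and 10 against 25 in eGFP-YAP cells (ratio 2.50, interval 1.16 to 5.83; 1.83). The shortened lists hold the highest control scores alone while the sorbitol lists keep every score, so length and score range change together. Loops with no protein-coding start near either anchor had lower ratios, 0.234 in WT and 0.164 in eGFP-YAP cells.

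Gene by gene, loops appeared and disappeared in WT cells at shares of all starts close to those of other genes. A loop can be lost only where control had one, and gained only where control had none. More of the 40 genes than of other starts had a control loop. Without a WT control loop, 7 genes had one with sorbitol and 12 had none, beside 3050 and 11069 other starts. A loop with sorbitol and none in control was found in WT cells for 7 of 40 genes (17.5%, interval 7.34 to 32.8%), namely BTG2, ATF3, KLF6, DUSP6, SRF, EGR3 and KLF4, against 15.3% of other starts. The reverse was found for 9 (22.5%, interval 10.8 to 38.5%), namely DUSP5, FOSL1, NR4A1, FOSB, PPP1R15A, ZFP36L2, DUSP2, IER3 and DUSP4, against 16.7%. Among starts with a WT control loop, these were 9 of 21 genes and 3332 of 5811 other starts. In eGFP-YAP cells 5 genes (12.5%, interval 4.19 to 26.8%) had a loop only in the sorbitol list, BTG2, ATF3, IER2, ZFP36 and SRF, and 12.5% of other starts did. Without an eGFP-YAP control loop, 5 genes had one with sorbitol and 8 had none, beside 2487 and 9963 other starts. Among starts without a control loop, gains were thus relatively more frequent at the 40 genes in both lines, on few genes and without a test. A loop only in the control list was found there for 15 genes (37.5%, interval 22.7 to 54.2%), against 21.5%. Among starts with an eGFP-YAP control loop, these were 15 of 27 genes and 4281 of 7480 other starts. With the control lists shortened to the length of the sorbitol lists the counts of genes with sorbitol loops alone and control loops alone became 14 and 2 in WT (35.0 and 5.00%; 21.6 and 6.43% of other starts) and 12 and 4 in eGFP-YAP cells (30.0 and 10.0%; 22.7 and 5.93%). In the upper 50% of every list by score they were 9 and 6 in WT (22.5 and 15.0%; 11.7 and 11.0%) and 4 and 11 in eGFP-YAP cells (10.0 and 27.5%; 9.00 and 13.5%). The balance between the directions thus differed between these settings.

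Across both lines, BTG2, ATF3 and SRF had loops in both sorbitol lists and in neither control list (7.50%, interval 1.57 to 20.4%; 5.21% of other starts). NR4A1, FOSB, PPP1R15A, DUSP2 and IER3 had loops in both control lists and in neither sorbitol list (12.5%, interval 4.19 to 26.8%; 7.57%), and none of these 5 had a loop in the shortened control lists. KLF6 and DUSP6 gained loops in WT and lost them in eGFP-YAP cells (5.00%, interval 0.611 to 16.9%; 2.87% of other starts had opposite changes in the lines). Both had no loop in the shortened eGFP-YAP control list, and a WT control loop of KLF6 lay just outside the rule. A loop was listed in every condition for 7 genes, IER5, NFKBIA, JUND, FOSL2, MAFF, DUSP1 and KLF10 (17.5%, interval 7.34 to 32.8%; 6.71% of other starts), and in none for 5, EGR2, FOS, JUNB, KLF2 and ARC (12.5%, interval 4.19 to 26.8%; 39.2%).

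**Figure D2:**
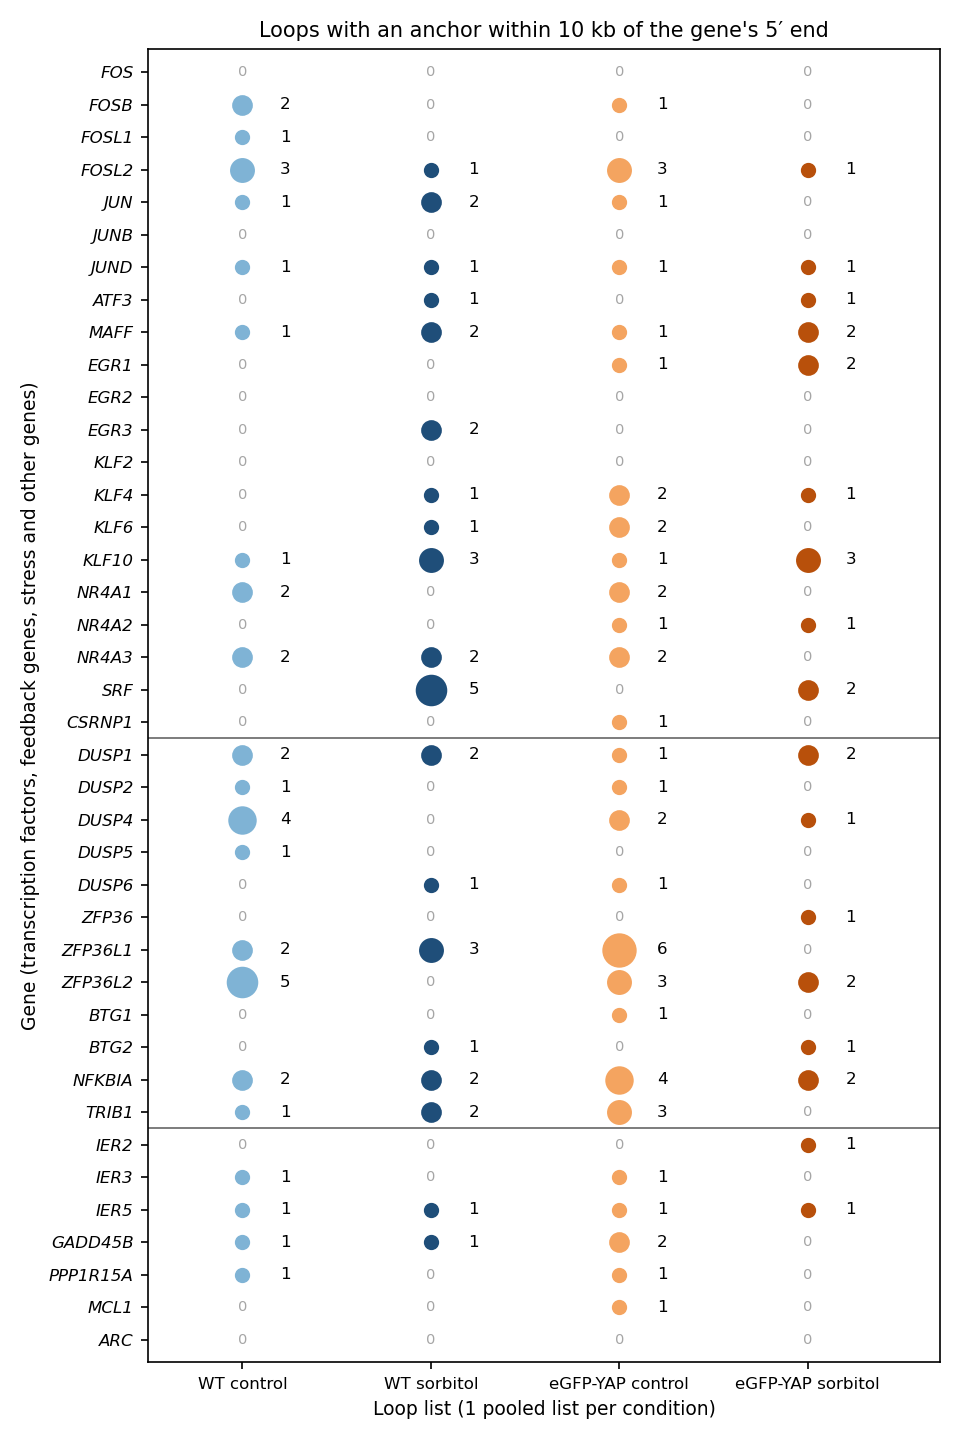
Number of loops with an anchor within 10 kb of the 5′ end of each gene (rows, ordered by role, with lines between transcription factors, feedback genes and stress or other genes) in the 4 lists (columns). Circle area is in proportion to the printed number. SRF has 5 and 2 loops in the sorbitol lists and 0 in both control lists, and the largest number is 6, for ZFP36L1 in eGFP-YAP control.

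SRF encodes serum response factor, which binds the CArG boxes of many immediate-early promoters. Its own window, shown above, held 2 matches to the CArG box, and binding there was not analysed. SRF had 0, 5, 0 and 2 loops in WT control, WT sorbitol, eGFP-YAP control and eGFP-YAP sorbitol, the order used for counts from here on. Loops at SRF were thus listed with sorbitol in both lines and in neither control list. All 7 sorbitol loops had another gene start at the far anchor. In WT cells 4 of the 5 ran against the direction of transcription, over 110 to 240 kb, to anchors at MRPL2 and PTK7, at KLHDC3, MEA1 and RRP36, at PEX6 and PPP2R5D, and at CNPY3 and PTCRA, and the fifth ran 195 kb the other way to ZNF318. One of them, chr6:43065001-43070000 with chr6:43175001-43180000 (110 kb, score percentile 39.6), was matched in eGFP-YAP cells with sorbitol by chr6:43055001-43060000 with chr6:43175001-43180000 (120 kb, score percentile 30.9), which reached MRPL2 and CUL7. The score percentile is the rank of a loop's deposited peak score within its list, from 0 to 100. The second eGFP-YAP loop ran 335 kb to LRRC73, POLR1C and YIPF3. None of the 7 anchors held the SRF start itself: they lay 1269, 3732 or 8732 bp from it, and those downstream of it also lay within 10 kb of the start of CUL9. A WT control loop lay just outside the rule, 11269 bp from the SRF start (chr6:42905001-42910000 with chr6:43155001-43160000, 250 kb), and it also reached PTCRA. Partner genes outside the rule for naming loops were named here after their values were seen.

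**Figure D3:**
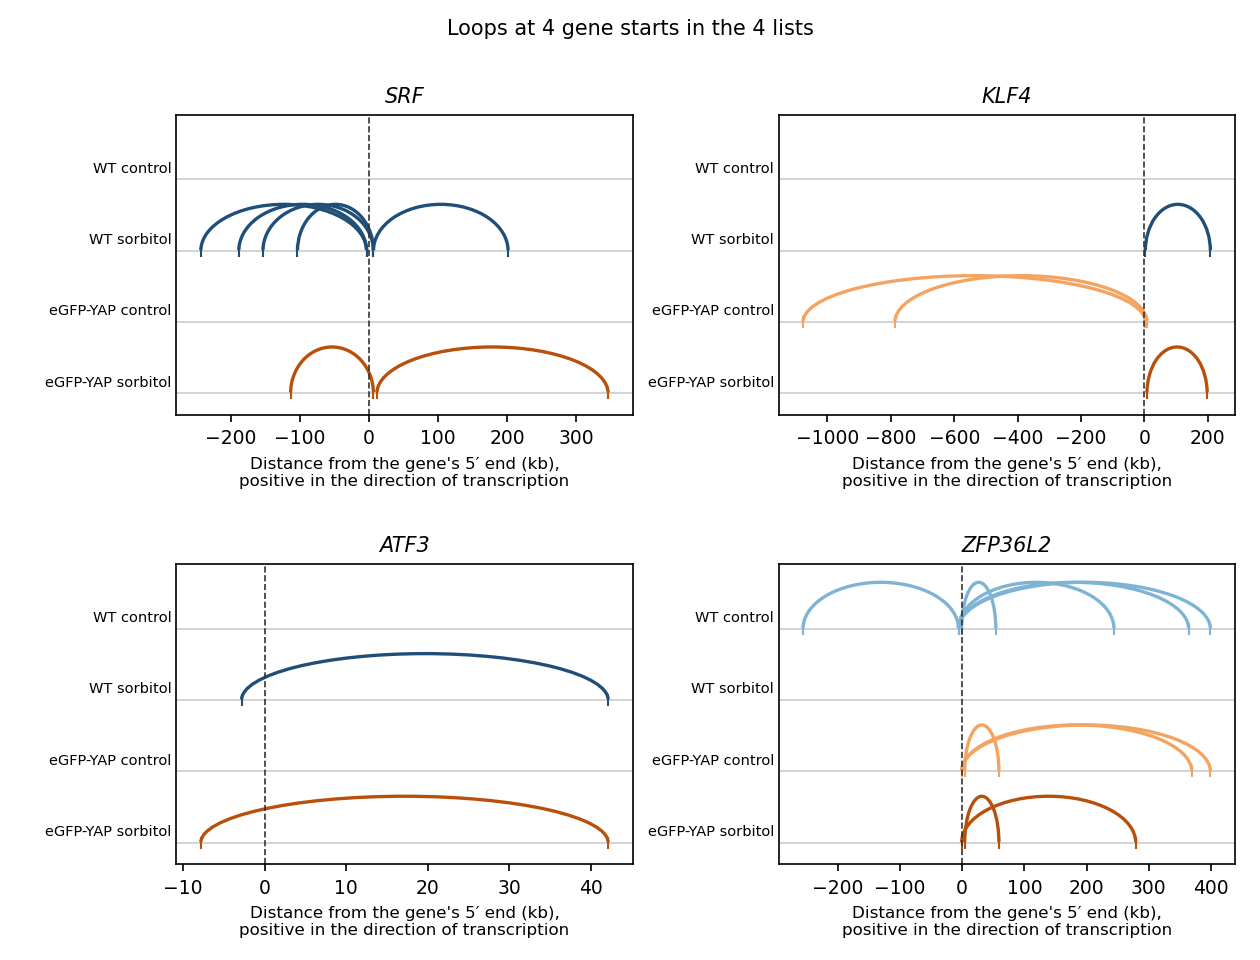
Loops at the starts of SRF, KLF4, ATF3 and ZFP36L2 in the 4 lists (1 row each), as arcs between anchor centres against distance from the 5′ end (kb, positive in the direction of transcription, dashed line at 0). SRF has arcs in the sorbitol rows alone, ATF3 has 1 short arc in each sorbitol row, and ZFP36L2 has 5 arcs in WT control and none in WT sorbitol.

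Members of AP-1, the dimeric factor formed by FOS and JUN family proteins, had more loops in the control lists than in the sorbitol lists on the FOS side. FOSB had 2, 0, 1 and 0 loops, FOSL1 had 1, 0, 0 and 0, and FOSL2 had 3, 1, 3 and 1. The FOSB loop of eGFP-YAP control was also matched in WT sorbitol, outside the rule. In the shortened control lists none of the 3 had a loop, which leaves FOSL2 with 1 in each sorbitol list and turns that direction. FOS itself had none under the rule. A loop was nevertheless listed 11175 bp from the FOS start in both sorbitol lists, chr14:75180001-75185000 with chr14:75290001-75295000 in WT and chr14:75175001-75180000 with the same second anchor in eGFP-YAP cells, of 110 and 115 kb, and in both cases the far anchor was near the start of TMED10. Neither control list held a FOS loop within 12 kb. JUN had 1, 2, 1 and 0 loops. Its WT loop to FGGY was shared by control (515 kb) and sorbitol (510 kb), and a sorbitol loop of 1035 kb reached HOOK1. JUND had 1 loop in each list, of 130 to 145 kb, and in all 4 lists its far anchor lay near the start of SSBP4. The JUND loop of WT sorbitol was matched in each other list, though those loops did not all match each other. JUNB had none.

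ATF3, a repressor and activator induced by many stresses, and MAFF, a small MAF protein, form dimers with other leucine zipper factors. ATF3 had 0, 1, 0 and 1 loops, chr1:212560001-212565000 with chr1:212605001-212610000 in WT sorbitol (45 kb, score percentile 30.3) and chr1:212555001-212560000 with the same second anchor in eGFP-YAP sorbitol (50 kb, score percentile 34.2). The far anchor lies inside ATF3 and held no start of another protein-coding gene, but it contained annotated starts of shorter ATF3 transcripts, the first at position 212608670, and the RefSeq start at 212615018 lay 5018 bp beyond it. The ATF3 loop thus joined the region of the gene's first start with the region of its internal starts, in both sorbitol lists and in neither control list. MAFF had 1, 2, 1 and 2 loops. A loop to KCNJ4 and KDELR3 was listed in WT control (255 kb) and in both eGFP-YAP lists (265 kb, score percentile 83.3 in control and 90.7 with sorbitol). In both sorbitol lists MAFF also had a loop of 505 kb in WT (chr22:38195001-38200000 with chr22:38700001-38705000) and 500 kb in eGFP-YAP cells (chr22:38200001-38205000 with the same second anchor) to GTPBP1 and JOSD1.

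The EGR and KLF genes encode zinc finger factors that bind GC-rich promoters. EGR1 had 0, 0, 1 and 2 loops, and its eGFP-YAP sorbitol loops ran 280 and 430 kb against the direction of transcription, 1 of them to BRD8 and KIF20A. EGR3 had 0, 2, 0 and 0, and EGR2 none. KLF4 had 0, 1, 2 and 1. Its 2 sorbitol loops were matched between the lines and reached RAD23B, which encodes a DNA repair protein, chr9:107280001-107285000 with chr9:107485001-107490000 in WT (205 kb, score percentile 87.1) and chr9:107290001-107295000 with chr9:107480001-107485000 in eGFP-YAP cells (190 kb, score percentile 69.2). The 2 loops of eGFP-YAP control ran the other way, over 795 and 1080 kb, to anchors with no protein-coding start. KLF4 thus had loops in eGFP-YAP cells in both conditions, with different partners. KLF6 had 0, 1, 2 and 0 loops, and its WT sorbitol loop of 880 kb (chr10:3780001-3785000 with chr10:4660001-4665000) had the highest score percentile of any of the 34 loops in that list, 98.8. That loop was matched in eGFP-YAP control at 875 kb and a score percentile of 44.5. A different KLF6 loop, of 575 kb, was listed in WT control just outside the rule, 10281 bp from the start. KLF2 had none.

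KLF10, a target of TGF-β signalling, had 1, 3, 1 and 3 loops. It had the only loop that was matched between all 4 lists from every side, of 155 to 160 kb and score percentiles of 97.0, 81.1, 96.9 and 85.0, whose far anchor held no protein-coding start. In both control lists this loop ranked highest among the loops of the 40 genes. Both sorbitol lists added a loop of 415 kb to RRM2B, a ribonucleotide reductase subunit, at score percentiles of 61.8 and 88.0.

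NR4A1, NR4A2 and NR4A3 encode orphan nuclear receptors. NR4A1 had 2, 0, 2 and 0 loops, and those near the start of SMIM41 were matched between the control lists (60 and 55 kb). NR4A2 had 0, 0, 1 and 1, and NR4A3 had 2, 2, 2 and 0, with a loop of 80 to 105 kb to STX17 in the 3 lists that held any. CSRNP1, a nuclear protein induced with these factors, had 0, 0, 1 and 0.

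The DUSP genes encode phosphatases of MAP kinases. DUSP1 had 2, 2, 1 and 2 loops. Its 3 control loops reached no protein-coding start, and its 4 sorbitol loops did, at SH3PXD2B and STC2 in WT cells (305 and 565 kb) and at RPL26L1 and CREBRF in eGFP-YAP cells (185 and 285 kb). DUSP1 therefore had loops in every list, and its partners differed between the sorbitol lists. DUSP4 had 4, 0, 2 and 1. A DUSP4 loop of 380 kb to an anchor with no start was among the 3 highest scores in both control lists (score percentiles 82.5 and 92.7) and was in neither sorbitol list, while the eGFP-YAP sorbitol loop of 735 kb reached SARAF, as did a WT control loop of 740 kb just outside the rule, 10684 bp from the start. DUSP2 had 1, 0, 1 and 0, the same 120 kb loop to CIAO1 and TMEM127 in both controls. DUSP5 had 1, 0, 0 and 0, and DUSP6 had 0, 1, 1 and 0.

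ZFP36 proteins bind AU-rich elements and hasten mRNA decay. ZFP36 had 0, 0, 0 and 1 loops, ZFP36L1 had 2, 3, 6 and 0, and ZFP36L2 had 5, 0, 3 and 2. At ZFP36L2 all 5 loops of WT control were matched in eGFP-YAP control, 3 of them (55, 370 and 405 kb) by loops inside the rule of 55, 370 and 400 kb, and of these 5 the 55 kb loop alone was also in eGFP-YAP sorbitol. None of the ZFP36L2 loops reached a protein-coding start in any list. ZFP36L1 loops were long, from 395 to 975 kb, and 1 of 11 reached a gene start, in WT sorbitol at RAD51B and ZFYVE26. BTG2, which slows proliferation and recruits mRNA deadenylases, had 0, 1, 0 and 1 loops, both to ADIPOR1 and CYB5R1: chr1:202955001-202960000 with chr1:203300001-203305000 in WT (345 kb, score percentile 64.8) and chr1:202965001-202970000 with chr1:203305001-203310000 in eGFP-YAP cells (340 kb, score percentile 63.8). Its relative BTG1 had 0, 0, 1 and 0.

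NFKBIA encodes the inhibitor of NF-κB whose promoter is shown above. It had 2, 2, 4 and 2 loops, all running in the direction of transcription. The sorbitol loops chr14:35300001-35305000 with chr14:35400001-35405000 (100 kb, WT, score percentile 14.1) and chr14:35290001-35295000 with the same second anchor (110 kb, eGFP-YAP, score percentile 48.7) were matched with each other, and a WT control loop of 125 kb was matched to the second of them. TRIB1, a pseudokinase, had 1, 2, 3 and 0 loops, and a loop of 315 kb was listed in WT control, WT sorbitol and eGFP-YAP control.

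Among the stress and other genes, PPP1R15A, which reverses the translation block of the stress response, had 1, 0, 1 and 0 loops, both near the start of FTL. IER3 had 1, 0, 1 and 0, IER2 had 0, 0, 0 and 1, and IER5 had 1 in each list. For IER5 both control lists held a loop of 60 kb to an anchor with no protein-coding start, and both sorbitol lists held one to MR1 and STX6 instead, chr1:181020001-181025000 with chr1:181090001-181095000 in WT (70 kb) and with chr1:181085001-181090000 in eGFP-YAP cells (65 kb). Their score percentiles, 5.23 and 24.0, were the lowest of the 8 pairs of sorbitol loops matched between the lines. GADD45B had 1, 1, 2 and 0 loops. Its loop of 145 kb in WT control (chr19:2465001-2470000 with chr19:2610001-2615000) was at a score percentile of 96.8 there, and the matched loops were at 90.1 in eGFP-YAP control and 13.4 in WT sorbitol. MCL1, an inhibitor of apoptosis, had 0, 0, 1 and 0, and ARC, a gene best known from neurons, had none.

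By role, the 21 transcription factor genes had 14, 21, 19 and 14 loops, the 12 feedback genes 18, 11, 22 and 9, and the 7 stress and other genes 4, 2, 6 and 2. Loops of the transcription factor genes were thus more numerous with sorbitol than in control in WT cells and less numerous in eGFP-YAP cells, and those of the feedback genes less numerous in both lines. With the control lists shortened, the transcription factor genes had 2 control loops in WT and 4 in eGFP-YAP cells and the feedback genes 8 and 5, below their sorbitol counts in both lines, so the direction turned for the feedback genes in both lines and for the transcription factor genes in eGFP-YAP cells. SRF alone supplied 5 of the 21, and these sums have no test.

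The far ends of the loops differed between conditions in both lines. Another protein-coding start lay within 10 kb of the far anchor in 10 of 36 loops in WT control (27.8%, interval 14.2 to 45.2%) and 21 of 34 with sorbitol (61.8%, interval 43.6 to 77.8%). In eGFP-YAP cells the shares were 11 of 47 (23.4%, interval 12.3 to 38.0%) and 18 of 25 (72.0%, interval 50.6 to 87.9%). Leaving out SRF, the gene with most loops in WT sorbitol, gave 16 of 29 there (55.2%). Loops at other gene starts showed the same direction, with 31.8 and 71.2% in WT and 38.2 and 72.9% in eGFP-YAP cells. Shares of other starts in this paragraph are per anchor near a start, so a loop with starts at both ends counted for both anchors. The 40 genes were counted once per loop, and counting per anchor raises the share of other starts. Beside these values, the interval of eGFP-YAP control (which lay just below 38.2%) alone left out the share of other starts. Shares per loop were not computed for other starts, so whether the 40 genes differ from them is not settled. With the control lists shortened, an alternative added after seeing the data, 1 of 11 control loops in WT (9.09%, interval 0.230 to 41.3%; 28.7% at other starts) and 1 of 10 in eGFP-YAP cells (10.0%, interval 0.253 to 44.5%; 29.3%) reached another start, below the sorbitol shares as well. Genes with partner starts in sorbitol lists and none in control lists include IER5, DUSP1 and KLF4. None of the 142 loops joined 2 of the 40 genes.

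**Figure D4:**
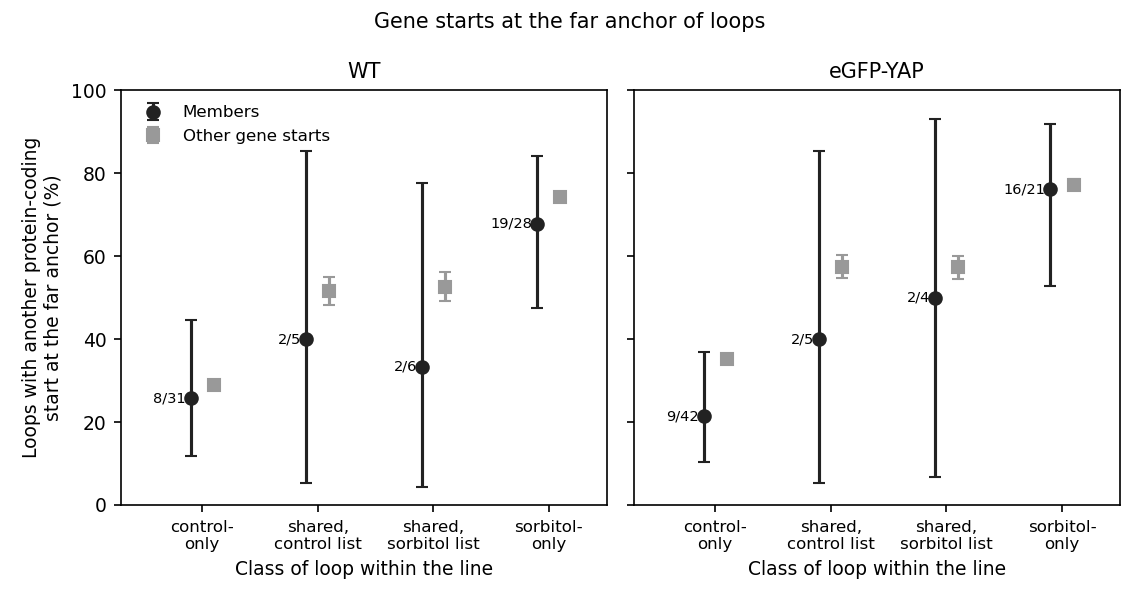
Share of loops with another protein-coding start within 10 kb of the far anchor (percent, y axis), by class of loop within each line (x axis), for the 40 genes (circles, with counts) and other gene starts (squares). Error bars are exact 95% intervals of counting error. For the 40 genes the share is 8 of 31 and 9 of 42 in control-only loops and 19 of 28 and 16 of 21 in sorbitol-only loops. Circles count each loop once, and squares count once per anchor near a start.

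Loops of different lists were called matched when the centres of their left anchors, and of their right anchors, were at most 10 kb apart. Of the sorbitol loops at the 40 genes, 28 of 34 in WT (82.4%, interval 65.5 to 93.2%) and 21 of 25 in eGFP-YAP cells (84.0%, interval 63.9 to 95.5%) had no match in the control list of the line, against 83.4 and 75.0% at other starts. Of the 28 WT sorbitol-only loops 8 were matched in eGFP-YAP sorbitol (28.6%, interval 13.2 to 48.7%; 21.6% at other starts), and 8 of the 21 eGFP-YAP ones in WT sorbitol (38.1%, interval 18.1 to 61.6%; 23.2%). These 8 pairs were at KLF4, KLF10, BTG2, MAFF, SRF, ATF3, NFKBIA and IER5, 1 each. Control-only loops were matched between the lines for 16 of 31 in WT (51.6%; 39.5% at other starts) and 12 of 42 in eGFP-YAP cells (28.6%; 27.9%). A loop can have more than 1 match, so the counts from both sides differ.

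Loops of the 40 genes were somewhat longer than those of other gene starts, which were again counted once per anchor near a start. The median span was 215, 232, 270 and 265 kb in the 4 lists, against 175, 180, 205 and 190 kb, and the intervals of the medians (125 to 345, 155 to 415, 155 to 420 and 155 to 340 kb) included the values of the other starts. Their deposited peak scores had median percentiles of 38.6, 51.2, 44.5 and 42.6, against 48.9, 52.5, 44.7 and 46.2 at other starts. The WT control median was the farthest below that of other starts, but its interval (23.3 to 59.6) included it, as did those of the other lists. The anchor near the gene held the start itself in 4 of 36, 9 of 34, 11 of 47 and 15 of 25 loops (11.1, 26.5, 23.4 and 60.0%; 26.3, 44.4, 29.6 and 49.3% for other starts), and the median distance from start to anchor was 3114, 1269, 1122 and 0 bp. The anchors thus lay nearer the start in the sorbitol list of each line. For the 40 genes only the gene's own start counted as held, and for other starts any start near the anchor did. The shares of the 40 genes and of other starts are therefore not like for like. The WT control interval (3.11 to 26.1%) left out the share of other starts, and the WT sorbitol interval (12.9 to 44.4%) ended at it. At the edge of the rule, the farthest anchors inside it were those of MCL1 (9738 bp), TRIB1 (9643 bp) and KLF10 (9276 bp), and the nearest outside it those of NFKBIA (10252 bp) and KLF6 (10281 bp).

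CTCF binds a long DNA motif and stops the cohesin complex that extrudes loops. A match to the core CTCF motif, with at most 1 mismatch, was in the far anchor of 13 of 36 loops in WT control (36.1%, interval 20.8 to 53.8%) and 2 of 34 with sorbitol (5.88%, interval 0.720 to 19.7%), against 29.0 and 20.5% at other gene starts. In eGFP-YAP cells it was in 21 of 47 (44.7%, interval 30.2 to 59.9%) and 5 of 25 (20.0%, interval 6.83 to 40.7%), against 36.1 and 23.7%. The near anchors had a match in 12 of 36, 5 of 34, 17 of 47 and 8 of 25 loops (33.3, 14.7, 36.2 and 32.0%), against 28.7, 21.0, 35.2 and 23.9% at other starts, whose shares all lay inside the intervals of the 40 genes. Motif matches at far anchors were thus fewer with sorbitol in both lines, as at other starts, and the WT sorbitol interval lay just below the share of other starts. The shares of other starts are again per anchor near a start. Binding of CTCF was not analysed here.

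The genes are short, with a median length of 5.73 kb (interval 4.11 to 8.53 kb) against 27.6 kb for other protein-coding genes, and 7 of 40 had another start within 10 kb (17.5%, against 32.8% of other starts). Their surroundings held a median of 13.0 protein-coding starts within 500 kb, against 12.0. When all starts were divided into quartiles by this density, the 14 genes of the sparsest quartile (0 to 6 neighbouring starts) had a loop in 8, 9, 13 and 6 cases, where other starts of that quartile had one in 27.3, 17.0, 34.6 and 18.0%. They include KLF4, KLF6, NR4A3, ZFP36L1, ZFP36L2, TRIB1 and DUSP4, and EGR2 was the only 1 of the 14 with no loop in eGFP-YAP control. In the densest quartile (25 to 70 neighbouring starts) 6, 3, 6 and 4 of 11 genes had a loop, against 31.0, 37.7, 40.2 and 38.7% of other starts there. The sparsest quartile carried 19 of the loops in WT control, 14 in WT sorbitol, 28 in eGFP-YAP control and 7 in eGFP-YAP sorbitol, and each of the other quartiles carried 4 to 8 in every list.

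**Figure D5:**
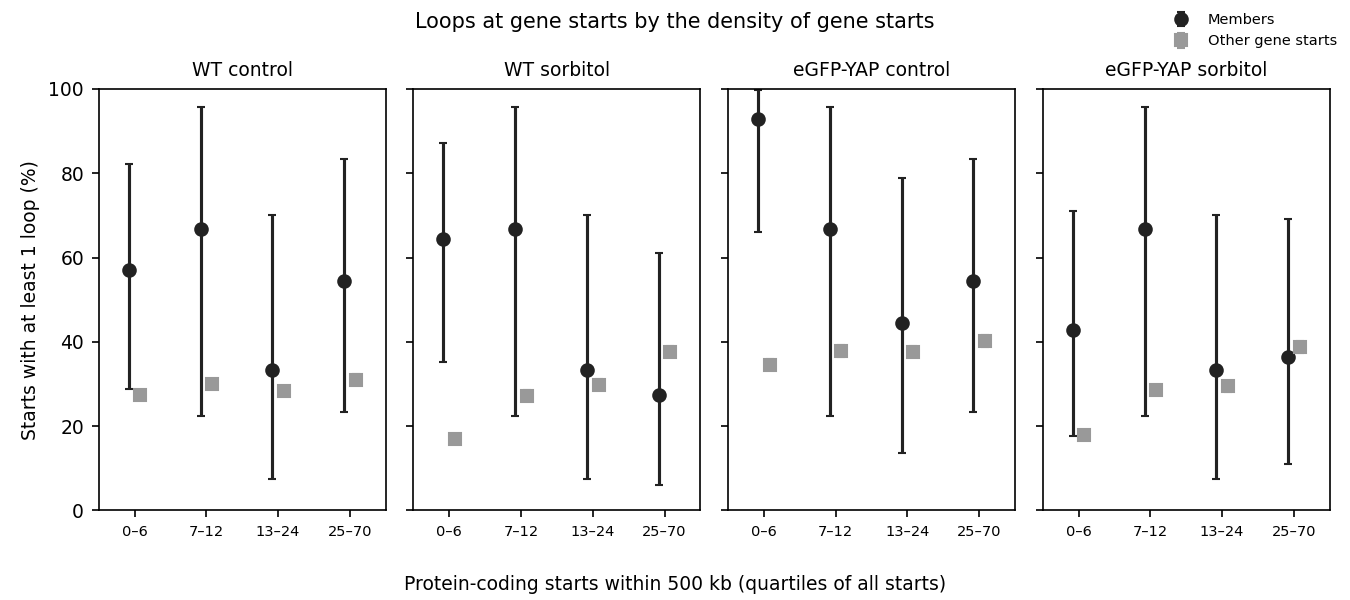
Share of starts with at least 1 loop (percent, y axis) by quartile of all protein-coding starts, ordered by the number of other starts within 500 kb (x axis), in the 4 lists (panels). Circles are the 40 genes (14, 6, 9 and 11 per quartile), squares other starts, and error bars exact 95% intervals of counting error. In the sparsest quartile the 40 genes stand at 57.1, 64.3, 92.9 and 42.9%, above the squares.

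Other genes of the same pathways were counted from 2 lists. Of 30 further immediate-early or stress genes, 17, 17, 25 and 15 had a loop in the 4 lists, 56.7% in both WT lists, 83.3% in eGFP-YAP control and 15 of 30 in eGFP-YAP sorbitol, against 29.2, 27.7, 37.5 and 28.5% of other starts. These shares were above those of the 40 genes in every list, so a high share of starts with loops is not particular to the 40. In WT cells 7 of the 30 had a loop with sorbitol and none in control and 7 the reverse (23.3% each; 15.3 and 16.7% of other starts), and in eGFP-YAP cells 1 and 11 (3.33 and 36.7%; 12.5 and 21.5%). CCN1, PHLDA1, TNFAIP3 and CEBPD had control loops alone in both lines (13.3%, interval 3.76 to 30.7%; 7.57% of other starts). Sorbitol loops alone in both lines were found for 0 of the 30 (5.21% of other starts). No count with the shortened control lists is given for these genes. Of 26 genes for the MAP kinases, their upstream kinases and the factors they act on, 5, 10, 13 and 6 had a loop, which is 19.2, 38.5 and 23.1% in WT control, WT sorbitol and eGFP-YAP sorbitol and 13 of 26 in eGFP-YAP control. In WT cells 8 of them had a loop with sorbitol and none in control (30.8%, interval 14.3 to 51.8%; 15.3% of other starts) and 3 the reverse (11.5%; 16.7%). In eGFP-YAP cells 3 had a loop with sorbitol alone (11.5%; 12.5%) and 10 in control alone (38.5%, interval 20.2 to 59.4%; 21.5%). RPS6KA1, a kinase downstream of ERK, and ELK4, a partner of SRF, had sorbitol loops alone in both lines (7.69%, interval 0.946 to 25.1%; 5.21% of other starts). MAP2K3 and MAP3K5 had control loops alone in both lines (7.69%, interval 0.946 to 25.1%; 7.57%). MAPK14, a kinase activated by osmotic stress, had a loop in both eGFP-YAP lists and in WT sorbitol alone of the WT lists. These genes were named after their values were seen.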

How the data were processed

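The 4 deposited loop lists, 1 per condition, have the columns of the SIP loop caller, per the file headers. The name of a list gave its condition, and no column names a sample. Submitters' processing notes give hg38, and all anchors lay inside hg38 chromosomes. The caller's version and settings, map normalization, aligner and depth are not given in the sources used here. The growth protocol speaks of HEK293T where the labels say HEK293.

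The deposited peak score of a loop is the authors' own value on an unstated scale and was used to rank loops within a list. The authors also deposited an enrichment probability per loop, a fraction, on which no filter was set.

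Gene starts are the 5′ ends of 19970 protein-coding gene records of GENCODE release 44. Distances, matches, motifs and intervals were computed with Python 3.11.15 (numpy, pandas, scipy) and tested on simulated loops. The members and gene lists were chosen with earlier results of these data known. Loops were named by rule: the 3 highest by score percentile per list, and loops matched in both sorbitol lists or in all 4 lists. Alternatives changed the distance, the start, the list length, the score range, the matching, the motif and the background. Loops without replicates allow no test. No column of per-sample values was left without a group (0 columns).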

Additional observations from a re-analysis of the deposited data

Results flagged for a closer look

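For 6 of the 40 genes the difference in loops, sorbitol minus control, had opposite signs in the lines. With 1 list per condition, whether the lines differ was not tested. WT minus eGFP-YAP, the differences stood 2 loops apart for JUN (1 and -1), 2 for KLF4 (1 and -1), 3 for KLF6 (1 and -2), 2 for DUSP6 (1 and -1), 7 for ZFP36L1 (1 and -6) and 4 for TRIB1 (1 and -3). In all 6 the difference was 1 loop upwards in WT cells and downwards in eGFP-YAP cells, and with the lists as deposited no gene showed the reverse. How many other starts had opposite signs was not counted, so this pattern cannot be called particular to the 40 genes. Among other starts, 20.0% had fewer loops with sorbitol in WT and 27.3% in eGFP-YAP cells, and 19.0 and 16.3% had more. The eGFP-YAP control list was the longest of the 4 lists, with 18966 loops. With the control lists shortened by peak score to the length of the sorbitol lists, opposite signs remained for 3 of the 6, KLF4 (1 and -1), ZFP36L1 (3 and -1) and TRIB1 (1 and -1), and went for the other 3, JUN (2 and 0), KLF6 (1 and 0) and DUSP6 (1 and 0). ZFP36L2 then showed the reverse (-3 and 2). With the lists as deposited, both differences were upwards for 5 genes and downwards for 8, and at least 1 of them was 0 for 21. These counts, too, have no share of other starts beside them.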

How the results depend on the processing

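Of 112 values recomputed under other settings, 55 stayed within 1.5 times the count reported or inside the interval of the share or median, and 57 did not. The 112 include shares of other protein-coding starts, most of them by density quartile, which were judged against narrow intervals. The 57 are therefore not all values of the 40 genes. With the start inside an anchor (0 kb), genes with a loop were 4, 7 and 8 in WT control, WT sorbitol and eGFP-YAP control (10.0, 17.5 and 20.0%; 8.28, 12.7 and 13.1% of other starts), and loops were 4, 9, 11 and 15 in the 4 lists. Genes with control loops alone were then 2 in WT and 5 in eGFP-YAP cells (6.69 and 9.61% of other starts), and 9 eGFP-YAP genes had sorbitol loops alone (10.3%). At 25 kb loops were 63, 58, 82 and 46, genes with a loop in eGFP-YAP sorbitol 26 (39.8% of other starts), and eGFP-YAP genes with sorbitol loops alone 3 (9.43%). With control lists shortened to the sorbitol length, 7 and 9 genes had a control loop (12.6 and 11.7% of other starts), with 11 and 10 loops, 14 WT and 12 eGFP-YAP genes had sorbitol loops alone (21.6 and 22.7%), and 2 and 4 control loops alone (6.43 and 5.93%). Partner shares of these control loops, an alternative chosen after seeing the data, were 9.09 and 10.0%. In the upper 50% of each list by score, 9, 12, 16 and 9 genes had a loop (15.9, 16.6, 19.4 and 14.9% of other starts). Matching at 0 kb made 100% of WT sorbitol loops unmatched, and at 25 kb 64.7%. With partner starts inside the far anchor, the shares were 5.56, 35.3 and 6.38% in WT control, WT sorbitol and eGFP-YAP control. Without a mismatch CTCF matches were in 13.9, 1.47, 16.0 and 2.00% of anchors, and with anchors widened by 5 kb in 65.3, 39.7, 57.4 and 54.0%, beside 34.7, 10.3, 40.4 and 26.0%.

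Leaving out SRF in WT sorbitol, an alternative chosen after seeing the data, kept 29 loops. No paired analysis was possible because the lists carry no replicate column, and for the same reason no replicate could be left out. Depth is unknown, so a loop missing from a list was not detected at that depth, and with 40 genes the intervals are wide.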
